A study of Mus musculus with 30 samples.

Results

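Potassium channel genes were taken as the protein-coding genes of the deposited expression table whose symbol begins with Kcn. The table held 93 such symbols besides 1 gene that is not analysed here. Of these, 82 reached 1 TPM (a level normalised for transcript length and for the library's total) in at least 3 of 30 libraries, and 11 did not. The same filter kept 25434 of the table's 56686 rows, and every test was fitted and adjusted over all of them. The samples were lumbar dorsal root ganglia, L3 to L5 of both sides, from wild-type male C57BL/6J mice, perfused with RNAlater on day 2 or day 8. There were 10 groups of 3 libraries. The day 8 groups had received CVAD, cyclophosphamide, vincristine, doxorubicin, dexamethasone or saline, and the day 2 groups CVAD, cyclophosphamide, dexamethasone or saline. CVAD is a chemotherapy regimen that in the clinic combines those same drugs. Doses, ages and the number of mice behind each library are not given in the sources used here, so p-values measure only the spread between these libraries.

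Potassium channels let potassium leave or enter a cell and pull its membrane towards rest. In sensory neurons the voltage-gated families (Kv) end each action potential and hold back repeated firing, the two-pore-domain channels carry background current, the inward rectifiers hold the resting potential, and channels opened by calcium or sodium shape the pause after a spike. Auxiliary subunits carry no current but set how many channels reach the membrane and how they gate. Damaged sensory neurons are known to lose several Kv subunits, which is why these genes are often followed in models of painful neuropathy. In a whole ganglion the RNA of neurons, satellite glia, Schwann cells and vessels is measured together, and fewer cells of a type cannot be told apart from less RNA per cell.

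The pore of these proteins is lined by a short selectivity filter of threonine, a hydrophobic residue, glycine, an aromatic residue and glycine. It is shown here because most of the pore-forming members hold it and the auxiliary members do not. In the longest basic coding sequence of each gene (GENCODE M21, build GRCm38), an in-frame run of 5 codons was searched on the coding strand: a threonine codon, a codon with T in the middle, a glycine codon, a codon that begins with T, and a glycine codon. It was present in 58 of the 82 members (70.7%), against 187 of 21781 protein-coding sequences (0.859%). Each member of the Kv1, Kv2, Kv3, Kv4, Kv7 and silent Kv families held it 1 time. Of the 11 two-pore-domain members, whose chains each carry a pair of pores, 9 held it 2 times. It was absent from the 10 Kv auxiliary and 3 BK beta members and also from 6 of the 7 Kv10 to Kv12 members, whose filters are spelled with other residues. The search covered the whole coding sequence, so a match can lie outside the pore. The place of the match in Kcnh5, the other Kv10 to Kv12 member, was not examined. The remaining pore-forming members without this run of codons were the small-conductance genes Kcnn1, Kcnn2 and Kcnn3, the inward rectifier Kcnj14 and the two-pore-domain gene Kcnk1. The codons of the filter are in capitals, with 15 coding bases on each side, for abundant members of the Kv1 and sodium-activated families and for Kcnk13, the member with the smallest p in most day 8 comparisons below.
Kcna1: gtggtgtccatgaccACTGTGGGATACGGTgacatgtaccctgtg
Kcnt1: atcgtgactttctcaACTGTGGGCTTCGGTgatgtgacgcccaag
Kcnk13, first pore: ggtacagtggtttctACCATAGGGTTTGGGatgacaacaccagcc
Kcnk13, second pore: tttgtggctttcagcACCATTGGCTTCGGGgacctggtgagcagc
On GRCm38 these lie in coding exons at chr6:126642213-126642257 on the minus strand (Kcna1), and at chr2:25894352-25894396 (Kcnt1) and, for the second Kcnk13 filter, chr12:100061361-100061405 on the plus strand. The stretch of the first Kcnk13 filter (chr12:99966259-100061024, plus strand) spans 2 coding exons, so that interval includes the intron.

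The libraries differed less in neuronal and glial markers than in markers of tissue from outside the ganglion. The summed TPM of 10 sensory neuron markers ranged from 1833 to 2618 over the 30 libraries, that of 5 satellite glia markers from 745 to 966, and that of 6 Schwann cell markers from 1245 to 1803. The summed TPM of 9 spinal cord markers ranged from 4.40 to 142, with Aqp4 listed at 0 in every library, and that of 8 skeletal muscle markers from 7.31 to 846. Replicate 3 of saline on day 2 and replicate 3 of doxorubicin on day 8 had the highest spinal cord sums (142 and 139 TPM). The lowest adjusted p of any marker against saline was 0.485 (limma). The number of reads per library is unknown, so no counting error is given.

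The potassium channel genes together made up 2902 to 3747 TPM of each library. Of the members, 10 averaged at least 100 TPM, 56 at least 10 TPM, 23 between 1 and 10 TPM, and 3 under 1 TPM. Their median level was 23.4 TPM, against 11.6 TPM for all genes tested, and 73 members reached 1 TPM in every library.

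The voltage-gated families and their auxiliary subunits held most of this RNA. Kcnab2, a beta subunit that binds Kv1 channels and promotes their transport to the axon, was the most abundant member at 331 ± 31.5 TPM (SD over 30 libraries). Kcnip3, a calcium-binding partner of Kv4 channels, averaged 157 ± 12.6 TPM, Kcnab1, another Kv1 beta subunit, 102 ± 8.05 TPM, and Kcnip2, which also binds Kv4, 95.7 ± 10.3 TPM. In the Kv1 family, whose low-threshold channels sit along axons beside the nodes, Kcna1 averaged 157 ± 13.5 TPM, Kcna2 129 ± 9.55 TPM and Kcna6 105 ± 8.34 TPM. Kcna4, the fast-inactivating Kv1 subunit of small sensory neurons, averaged 35.7 ± 2.80 TPM, and the other 4 family members were below 5 TPM. The levels of Kcnip3 and Kcna1 did not differ beyond their spread.

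Among the channels that repolarise the spike, Kcnb2, a delayed rectifier of the Kv2 family, averaged 82.2 ± 6.22 TPM. Of the fast Kv3 channels, those described ran in the order Kcnc4 (83.7 ± 8.49 TPM), Kcnc1 (60.4 ± 4.59 TPM) and Kcnc2 (36.9 ± 3.99 TPM). Of the A-type Kv4 family, Kcnd3 averaged 104 ± 11.2 TPM and Kcnd1 96.6 ± 7.90 TPM, which overlap in their spread, while Kcnd2 averaged 2.56 ± 0.633 TPM. Of the Kv7 family, whose M current restrains repeated firing, Kcnq3 averaged 32.2 ± 2.29 TPM and Kcnq5 25.7 ± 2.26 TPM. The ether-a-go-go relatives were led by Kcnh2 (83.1 ± 7.48 TPM) and Kcnh7 (69.8 ± 5.10 TPM). Silent Kv subunits, which do not form channels alone but modify Kv2, were led by Kcns1 (56.7 ± 5.73 TPM), Kcns3 (45.7 ± 4.11 TPM) and Kcng3 (40.5 ± 2.63 TPM).

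Outside the Kv families, the sodium-activated channel Kcnt1 averaged 145 ± 12.04 TPM, more than the large-conductance calcium-activated channel Kcnma1 (57.5 ± 9.70 TPM) and the small-conductance Kcnn1 (49.99 ± 5.94 TPM). The BK beta subunits Kcnmb4 and Kcnmb1 averaged 37.8 ± 3.62 and 20.8 ± 1.95 TPM. Two-pore-domain channels were led by Kcnk1 (63.9 ± 4.47 TPM), Kcnk12 (33.6 ± 4.49 TPM) and the mechanosensitive Kcnk2 (29.6 ± 6.26 TPM). Their mechanosensitive relatives Kcnk4 and Kcnk10 averaged 23.2 ± 4.11 and 15.9 ± 1.64 TPM, and Kcnk18, a background channel of sensory neurons linked to migraine in humans, 17.4 ± 2.69 TPM. The inward rectifiers were led by Kcnj12 (53.5 ± 4.17 TPM), then the G-protein-gated Kcnj3 (25.4 ± 2.39 TPM) and Kcnj2 (23.5 ± 3.49 TPM). Kcnj11, the pore of the channel closed by ATP, averaged 13.5 ± 1.94 TPM.

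**Figure D1:**
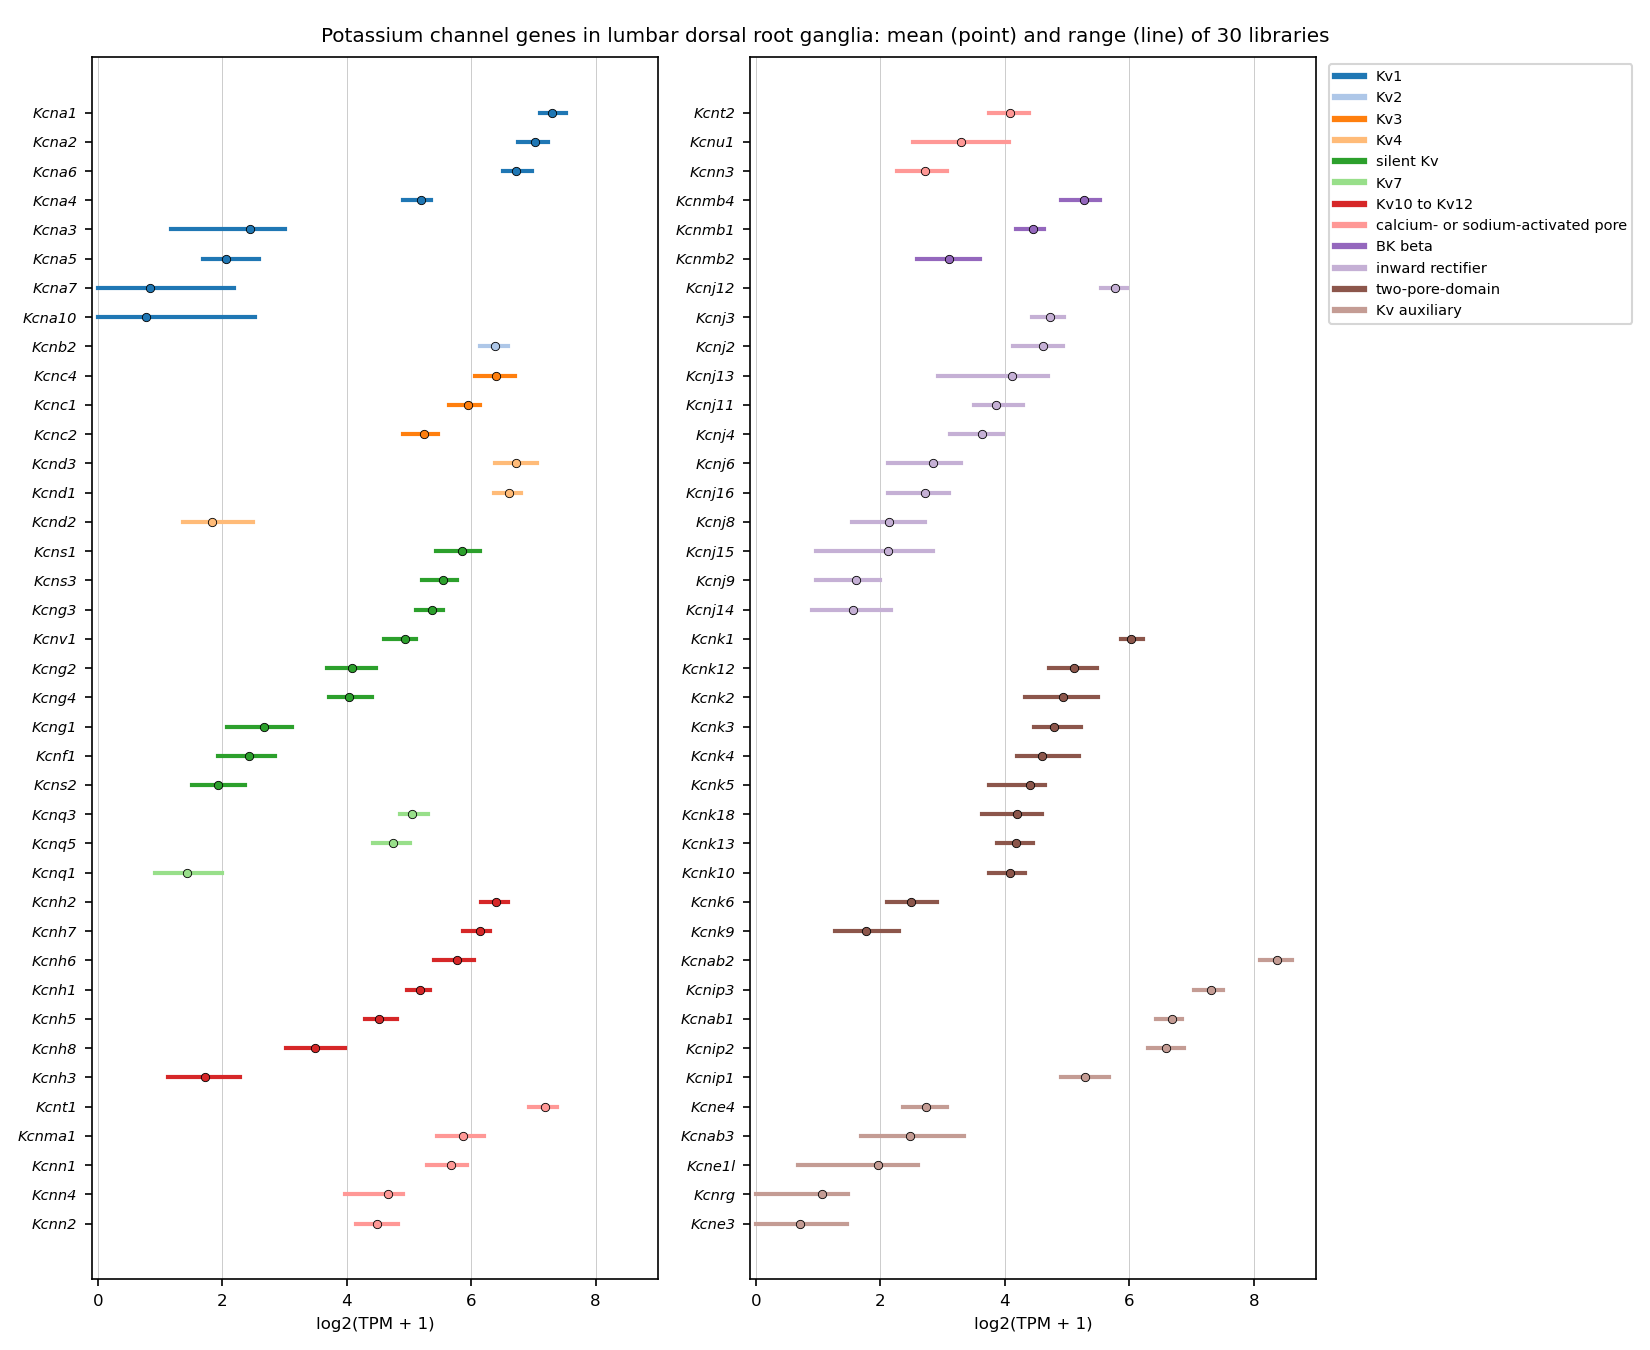
Level of potassium channel genes, log2(TPM + 1), in 2 columns grouped by family and ordered by mean within a family; the point is the mean and the line the range of 30 libraries. The abundant Kv, auxiliary and Kcnt1 genes have short lines, and the longest lines belong to Kcna10 and Kcna7, which average under 1 TPM. Some more abundant genes, such as Kcnj13 at 16.3 TPM, also have long lines.

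By family, with the sums of Kv2, Kv3 and Kv7 not given here, the Kv auxiliary subunits summed to 738 TPM on average, Kv1 to 435 TPM, the calcium- or sodium-activated pores to 328 TPM, Kv10 to Kv12 to 276 TPM and the two-pore-domain channels to 254 TPM. The silent subunits (217 TPM), Kv4 (204 TPM), the inward rectifiers (166 TPM) and the BK beta subunits (66.1 TPM) were lower. The 3 members nearest inside the filter were Kcna10, Kcne3 and Kcna7, which reached 1 TPM in 5, 10 and 11 libraries. Just outside it was Kcnk16, which did so in 2 libraries. Kcnip4, a Kv4 partner, was listed at 0 in all 30 libraries, and Kcnmb3, Kcne1, Kcne2, Kcnh4, Kcnj1, Kcnj5, Kcnv2, Kcnk7 and Kcnk15 averaged 0.106 TPM or less.

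The abundant members varied little between groups. For the 56 members at 10 TPM or more, the highest of the 10 group means was a median of 1.18-fold above the lowest, against 1.17-fold for protein-coding genes at the same level, and the median SD on the log2(TPM + 1) scale was 0.14 against 0.13. The widest spread of group means among these 56 was 1.87-fold, for the inward rectifier Kcnj13. Members below 10 TPM could spread more widely, such as Kcnu1 (2.22-fold) and Kcne1l (2.11-fold), while Kcne4 spread 1.22-fold. Little variation is therefore not shown for the less abundant members. In a limma model with 1 mean per group, 0 of 82 members differed among the 10 groups at an adjusted p under 0.05, and 0% of all genes tested did. At an unadjusted p under 0.05 there were 3 members (3.66%), against 5.61% of all genes tested. These were Kcnj16, Kcnk13 and the Kv3 gene Kcnc4, and the smallest adjusted p was 0.823.

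On day 8, 0 members passed the adjusted threshold in any of the 5 comparisons of a drug with saline (limma on log2(TPM + 1), adjusted over all genes). Fold changes on this scale understate the change of genes with few TPM, and the 5 comparisons share the same 3 saline libraries. For CVAD, 0 of 82 members and 0% of all genes were called, and 3 members (3.66%) had an unadjusted p under 0.05, all higher, against 5.98% of all genes, 3.2% higher and 2.78% lower. The smallest adjusted p was 0.779. For cyclophosphamide, 0 members were called against 0.00786% of all genes, and 1 (1.22%), which was higher, had an unadjusted p under 0.05, against 5.76% of all genes, 1.19% higher and 4.57% lower. The smallest adjusted p was 0.814. For vincristine, the component best known for damaging peripheral nerves, 0 members and 0% of all genes were called, and 1 member (1.22%), which was higher, had an unadjusted p under 0.05, against 3.44% of all genes, 2.04% higher and 1.41% lower. For doxorubicin, 0 members and 0% of all genes were called, and 4 members (4.88%), 3 higher and 1 lower, had an unadjusted p under 0.05, against 3.35% of all genes, 1.48% higher and 1.87% lower. For dexamethasone, 0 members and 0% of all genes were called, and 1 member, which was lower, had an unadjusted p under 0.05, against 3.26% of all genes, 1.25% higher and 2.01% lower. The smallest adjusted p was 1 for each of these 3 drugs.

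The day 8 estimates were narrow for most of the abundant members. Of the 56 members at 10 TPM or more, 51 had a 95% interval inside 1.5-fold in either direction for CVAD on day 8, 53 for cyclophosphamide, 52 for vincristine, 53 for doxorubicin and 54 for dexamethasone. These are 91.1%, 94.6%, 92.9%, 94.6% and 96.4%, against 89.4%, 89.8%, 91.3%, 91.4% and 91.4% of 11541 protein-coding genes at the same level. Genes below 10 TPM had wider intervals, and larger changes in them cannot be seen in 3 libraries a group.

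**Figure D2:**
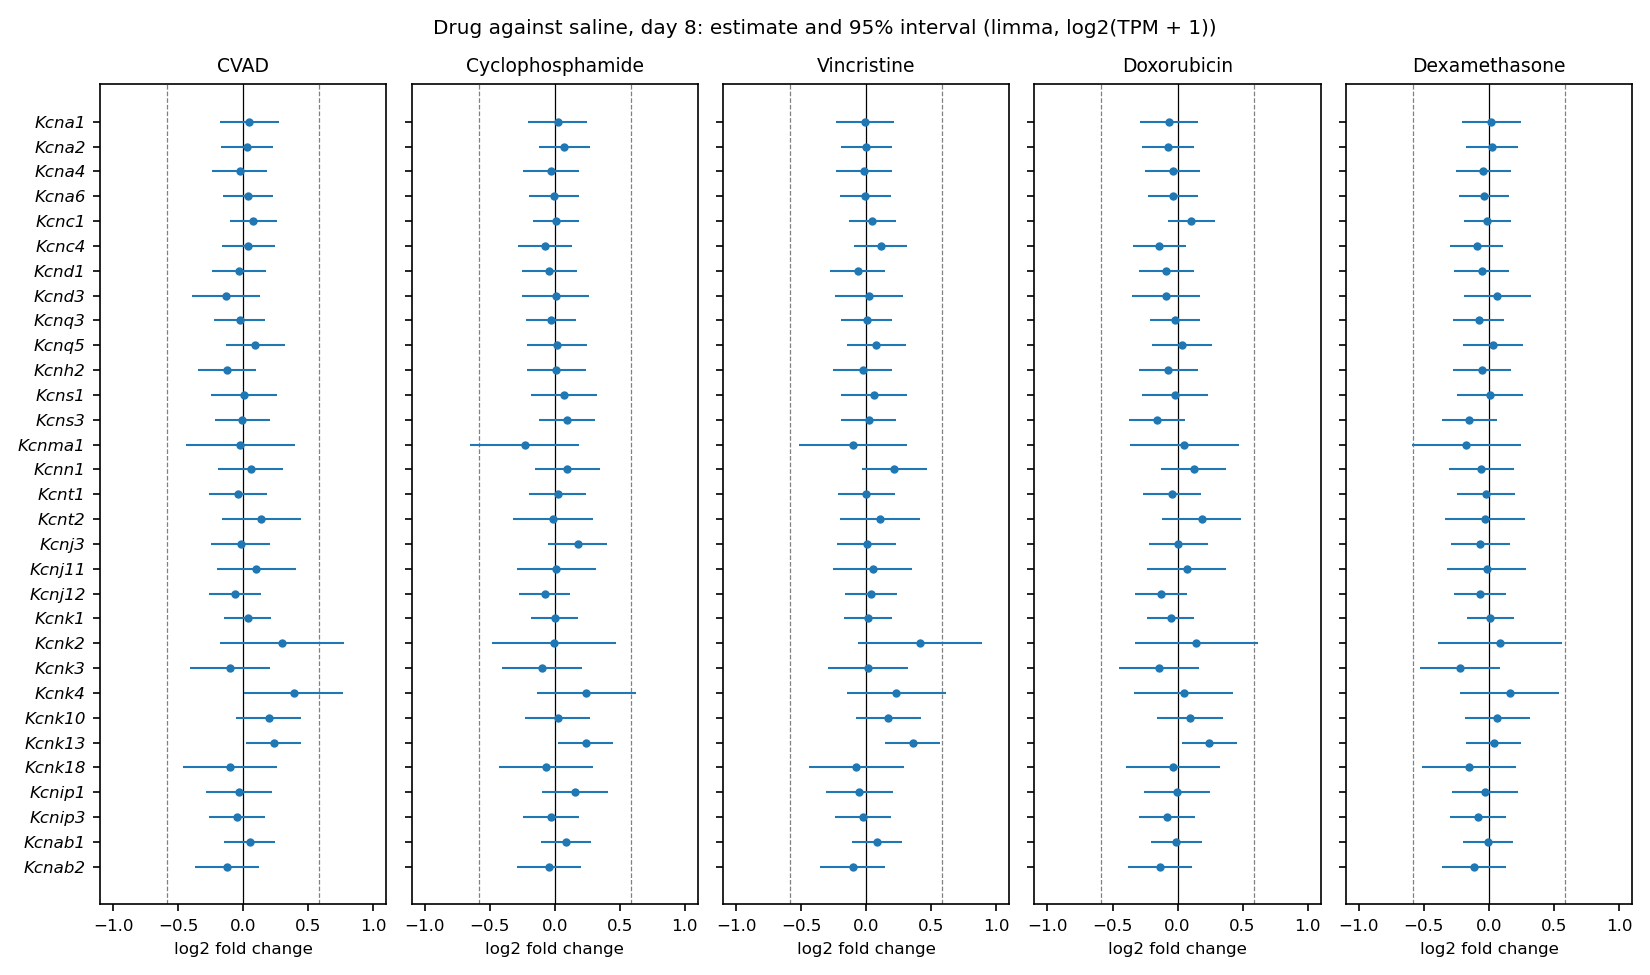
Log2 fold change of a selection of potassium channel genes much studied in sensory neurons, and of Kcnk13, each drug against saline on day 8. The scale is log2(TPM + 1), points are limma estimates, bars 95% intervals, and dashed lines mark 1.5-fold. Kcnd2, Kcnmb2, Kcnn2, Kcnn4 and Kcnj9 are among the much studied genes not drawn. Of these, Kcnd2 and Kcnmb2 had an unadjusted p under 0.05 for doxorubicin (limma). Most of the bars drawn cross 0 and lie between the dashed lines, and the whole bar of Kcnk13 lies to the right of 0 in 4 of the 5 panels.

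The abundant Kv genes show how close the groups were. Kcna1 had 174, 179 and 141 TPM in CVAD ganglia on day 8 and 149, 149 and 175 TPM in vincristine ganglia, against 168, 167 and 142 TPM in saline ganglia. All 3 groups overlapped, and the log2 fold change was 0.05 for CVAD (95% interval -0.18 to 0.27) and -0.01 for vincristine (-0.23 to 0.21). Kcna2 had 134, 140.3 and 120.2 TPM in CVAD ganglia and 120.3, 127 and 139 TPM in vincristine ganglia, against 137, 134 and 116 TPM in saline ganglia, with intervals of -0.17 to 0.23 and -0.20 to 0.20. Kcnab2 had 339, 343 and 298 TPM in CVAD ganglia and 333, 283 and 382 TPM in vincristine ganglia, against 330.3, 385 and 354 TPM in saline ganglia. Its log2 fold changes were -0.12 (-0.37 to 0.12) and -0.10 (-0.35 to 0.14). For the sodium-activated Kcnt1, with 152, 152 and 128 TPM in CVAD ganglia against 147, 153 and 143 TPM in saline ganglia, the interval was -0.26 to 0.18.

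Kcnk13 (chr12:99930758-100028941, GRCm39), a two-pore-domain background channel also known from microglia, had the smallest p among members in 4 of the 5 day 8 comparisons. It had 17.6, 18.6 and 17.3 TPM in CVAD ganglia, 17.3, 17.1 and 19.3 TPM in cyclophosphamide ganglia, 17.7, 20.1 and 20.9 TPM in vincristine ganglia and 17.5, 18.7 and 17.7 TPM in doxorubicin ganglia. Dexamethasone ganglia had 13.6, 16.7 and 16.1 TPM and saline ganglia 15.2, 14.7 and 15.1 TPM. Every library of the first 4 groups lay above the 3 saline libraries, whose SD was 0.242 TPM, and the dexamethasone libraries lay on both sides of them. The log2 fold changes were 0.23, 0.24, 0.36 and 0.24 for CVAD, cyclophosphamide, vincristine and doxorubicin, with a standard error of 0.10 each, and 0.04 for dexamethasone. The unadjusted p was 0.0314 for CVAD, 0.029 for cyclophosphamide, 0.00183 for vincristine and 0.0261 for doxorubicin, and none passed the adjustment in limma (adjusted p 0.779, 0.814, 1 and 1). The 4 values rest on the same saline libraries and are not independent. Saline ganglia of day 2 had 16.9, 17.8 and 16.9 TPM, above all 3 saline libraries of day 8, and the saline difference between days was -0.18 (adjusted p 0.747, limma). On day 2 the fold changes of Kcnk13 were -0.09 for CVAD, 0.05 for cyclophosphamide and -0.12 for dexamethasone.

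Other members with a small unadjusted p on day 8 were less abundant or more variable. Kcnj13, an inward rectifier of epithelia, had 20.7, 22.4 and 23.003 TPM in CVAD ganglia, against 14.5, 10.7 and 13.7 TPM in saline ganglia, with no overlap (log2 fold change 0.73 ± 0.32 SE, adjusted p 0.78 in limma). In saline ganglia of day 2 it had 18.2, 18.6 and 24.8 TPM, above the day 8 saline libraries, and the day 8 CVAD libraries lay within that range. It overlaps the gene Gigyf2 and followed spinal cord markers over libraries (r = 0.593 over 30 libraries), whose sum was 19.6 to 28.5 TPM in CVAD ganglia and 4.52 to 29.4 TPM in saline ganglia, and the part of either in its difference was not tested. Kcnk4, which overlaps Catsperz on the same strand, had 23.6, 35.4 and 22.7 TPM in CVAD ganglia, against 18.1, 21.6 and 20.99 TPM in saline ganglia (0.39 ± 0.18, adjusted p 0.822 in limma), so that 1 CVAD library stood above the other two.

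In doxorubicin ganglia Kcnab3, a Kv1 beta subunit, had 4.02, 4.59 and 9.19 TPM, against 3.85, 2.24 and 4.23 TPM in saline ganglia, and a single doxorubicin library carried most of the difference (0.60 ± 0.27). The BK beta subunit Kcnmb2 had 8.15, 4.99 and 5.22 TPM in doxorubicin ganglia, against 8.36, 10.7 and 7.67 TPM in saline ganglia (-0.49 ± 0.22). Kcnd2, the third Kv4 gene, was 0.43 higher in doxorubicin ganglia at an unadjusted p of 0.0458. Kcng1, a silent subunit, had 3.38, 3.83 and 4.43 TPM in cyclophosphamide ganglia, against 7.66, 5.71 and 4.38 TPM in saline ganglia (-0.48 ± 0.23, unadjusted p 0.0513), and the small-conductance gene Kcnn3 5.33, 4.67 and 4.49 TPM, against 6.64, 6.86 and 5.75 TPM. Kcng2, another silent subunit, had 19.8, 16.2 and 17.4 TPM in vincristine ganglia, against 16.8, 14.1 and 13.03 TPM in saline ganglia (unadjusted p 0.0753). In dexamethasone ganglia Kcnq1, the Kv7 gene best known from heart, had 1.15, 1.94 and 1.37 TPM, against 2.15, 1.67 and 2.93 TPM in saline ganglia. The mechanosensitive Kcnk2 had the largest vincristine value among members at 10 TPM or more. It had 23.4, 38.8 and 44.2 TPM in vincristine ganglia, against 30.3, 21.1 and 25.9 TPM in saline ganglia, which overlap. Its log2 fold change was 0.41, with a 95% interval of -0.06 to 0.89.

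**Figure D3:**
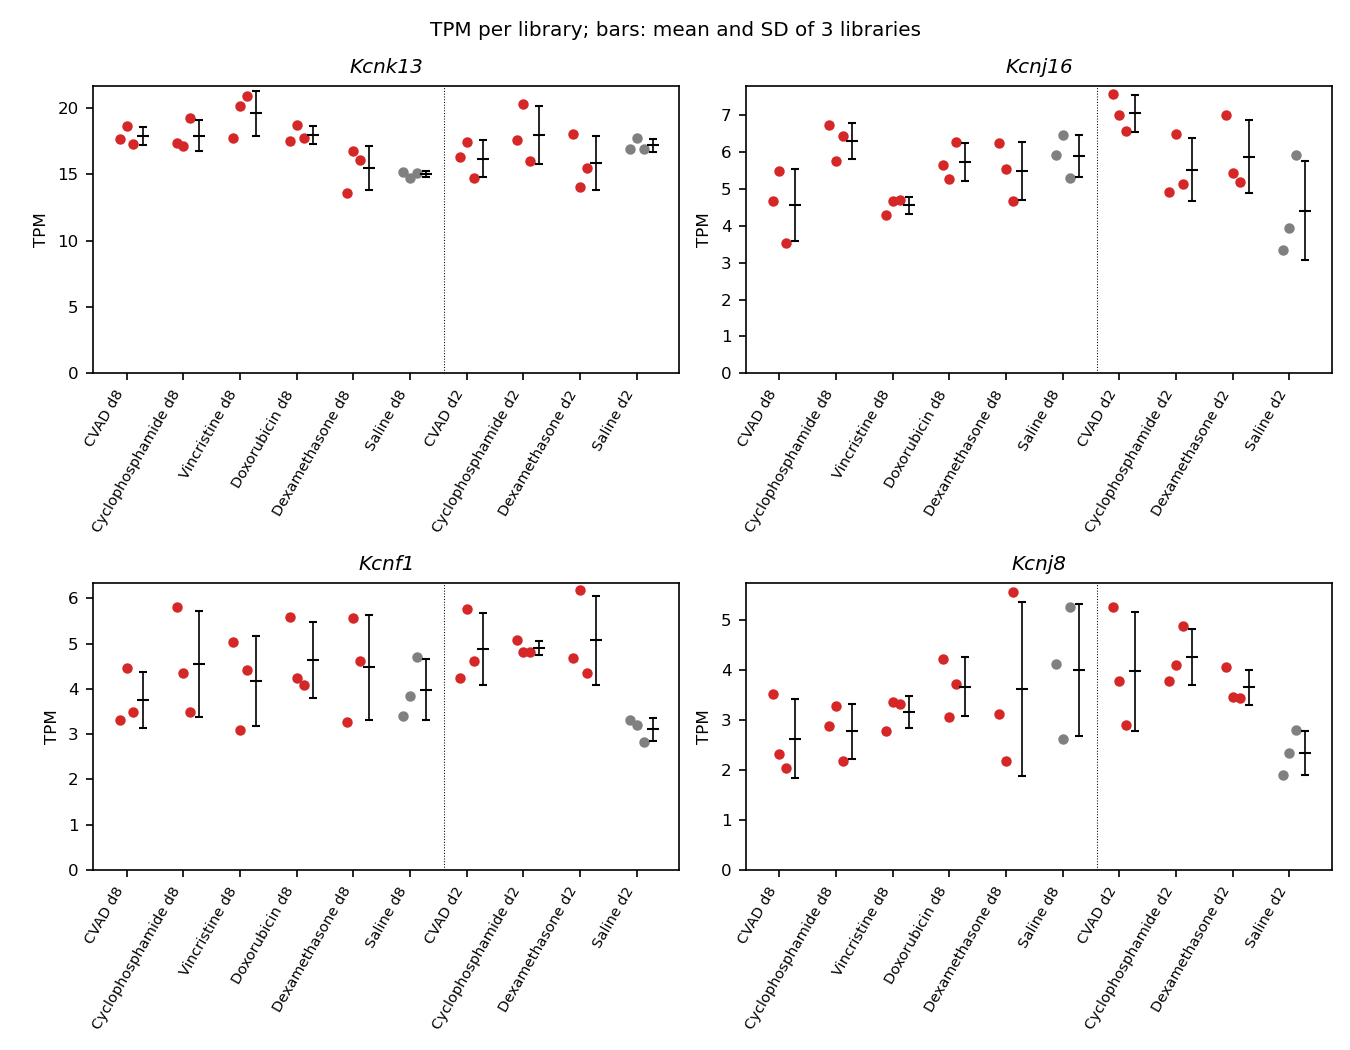
TPM of Kcnk13, Kcnj16, Kcnf1 and Kcnj8 in each library (points, drug groups red, saline grey), with the mean and SD of 3 libraries as bars; day 8 is left and day 2 right of the dotted line, and each axis starts at 0. Kcnk13 on day 8 shows 4 drug groups above a tight saline group, and Kcnj16, Kcnf1 and Kcnj8 on day 2 show the lowest group means in saline.

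On day 2, 0 members passed the adjusted threshold for CVAD, cyclophosphamide or dexamethasone against saline, where 0.0432%, 0.0118% and 0.00393% of all genes did (limma). At an unadjusted p under 0.05 there were 4 members (4.88%) for CVAD, all higher, against 8.19% of all genes, 6.97% higher and 1.22% lower. For cyclophosphamide there were 8 (9.76%), 7 higher and 1 lower, against 7.51% of all genes, 5.98% higher and 1.53% lower. For dexamethasone there were 5 (6.1%), 4 higher and 1 lower, against 5.37% of all genes, 4.31% higher and 1.05% lower. Most of the genes with a small p on day 2 were higher in the drug group across the whole table, 85.1%, 79.6% and 80.4% of them in CVAD, cyclophosphamide and dexamethasone, and scaling by the median ratio instead brought these shares to 55.9%, 52.3% and 54.6%. On day 8 the same change of scaling moved the higher share by more than 10 points for cyclophosphamide (20.6% to 39.0%), vincristine (59.1% to 48.7%) and dexamethasone (38.4% to 48.5%). Over the 8 comparisons with saline, the median log2 fold change of the 82 members ran from -0.03 to 0.07, against -0.04 to 0.07 for all genes tested. In single comparisons the median of the members could part from that of all genes, which was not tested. The 2 gaps given next are smaller than the median standard error of a single member, 0.148. For CVAD on day 2 the medians were 0.003 for members and 0.069 for all genes, and -0.064 and 0 with median-ratio scaling. For cyclophosphamide on day 8 they were -0.002 and -0.041, and 0.044 and 0 with that scaling. Spinal cord markers summed to 26.6 to 99.3 TPM in CVAD, 4.40 to 19.95 TPM in cyclophosphamide and 5.004 to 29.995 TPM in dexamethasone ganglia on day 2, against 21.3 to 142 TPM in saline ganglia. Of the 56 members at 10 TPM or more, 53 (94.6%) had a 95% interval inside 1.5-fold for CVAD on day 2, 45 (80.4%) for cyclophosphamide and 51 (91.1%) for dexamethasone, against 88.4%, 89.8% and 90.3% of protein-coding genes at the same level. With spinal cord and muscle markers as covariates, the cyclophosphamide count was 3 members in place of 8. It was 19 without replicate 3 of the cyclophosphamide group, 1 of the 2 libraries farthest from the median of the sensory neuron markers, and 5 and 3 without replicates 1 and 2. The share of all genes was not counted in these refits, so they cannot tell a shift of the members from one of the whole table.

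Kcnj16 (chr11:110858859-110918794, GRCm39), an inward rectifier subunit that works in partnership with another one and is a marker of satellite glia, gave the smallest adjusted p against saline. It had 7.58, 7.03 and 6.58 TPM in CVAD ganglia on day 2, against 3.35, 3.95 and 5.93 TPM in saline ganglia. The groups did not overlap, and the log2 fold change was 0.60 ± 0.17 (adjusted p 0.257 in limma). It was 0.29 for cyclophosphamide (4.93, 6.504 and 5.13 TPM) and 0.37 for dexamethasone (7.01, 5.44 and 5.18 TPM). On day 8 it had 4.69, 5.48 and 3.55 TPM in CVAD ganglia, against 5.92, 6.47 and 5.31 TPM in saline ganglia, a log2 fold change of -0.32. The other satellite glia markers summed to 752 to 866 TPM in CVAD ganglia and 770.3 to 832 TPM in saline ganglia on day 2.

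Several low-abundance members were lowest in the day 2 saline libraries that all 3 comparisons share. Kcnf1, a silent subunit, had 4.25, 5.77 and 4.62 TPM in CVAD, 5.09, 4.82 and 4.82 TPM in cyclophosphamide and 4.68, 6.18 and 4.34 TPM in dexamethasone ganglia, against 3.31, 3.20 and 2.83 TPM in saline ganglia. Every drug library lay above the 3 saline libraries, with log2 fold changes of 0.51, 0.52 and 0.55 (adjusted p 0.464, 0.55 and 0.832 in limma). Kcnj8, the pore of the ATP-sensitive channel of vessels, had 5.26, 3.78 and 2.90 TPM in CVAD and 3.78, 4.11 and 4.88 TPM in cyclophosphamide ganglia, against 1.90, 2.33 and 2.79 TPM in saline ganglia. Its cyclophosphamide fold change was 0.66 ± 0.24, and on day 8 it was -0.38, with 4.12, 2.61 and 5.26 TPM in saline ganglia. Kcna3, a Kv1 gene known from lymphocytes and microglia, had 7.07, 5.73 and 3.80 TPM in CVAD and 6.84, 6.37 and 4.68 TPM in cyclophosphamide ganglia, against 1.26, 4.29 and 4.39 TPM in saline ganglia, where 1 library was far lower than the others.

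For Kcnj11 the cyclophosphamide libraries had 14.6, 18.5 and 16.01 TPM, against 10.4, 12.4 and 13.025 TPM in saline (0.42 ± 0.15, adjusted p 0.528 in limma), and the groups did not overlap. Kcnt2, a sodium-activated channel, had 14.2, 12.7 and 15.1 TPM in dexamethasone ganglia, against 18.2, 16.7 and 19.8 TPM in saline ganglia (-0.36 ± 0.15, adjusted p 0.891 in limma). The other members with an unadjusted p under 0.05 for cyclophosphamide were Kcnk12 (0.36), Kcnip1 (0.30), Kcnn1 (0.28) and, lower, Kcnj13 (-0.75). For dexamethasone they were Kcnmb2 (0.47) and Kcnn1 (0.25).

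Set against the single drugs of the same day, CVAD gave 0 called members in all 6 comparisons (limma). All genes gave 0% in 5 of these and 0.00393% against cyclophosphamide on day 2. At an unadjusted p under 0.05 on day 8 the members numbered 3 against cyclophosphamide, 1 higher and 2 lower in CVAD, beside 5.34% of all genes (4.54% higher and 0.802% lower). Against vincristine there were 0, beside 3.48% of all genes (1.64% higher and 1.84% lower). Against doxorubicin there were 2, both higher, beside 4.8% of all genes (3.18% higher and 1.62% lower), and against dexamethasone 1, which was higher, beside 4.94% (3.11% higher and 1.83% lower). On day 2 they numbered 7, all lower in CVAD, against cyclophosphamide (8.54%, beside 3.83% of all genes, 2.28% higher and 1.55% lower; 19 without replicate 3 of cyclophosphamide and 2 without replicate 1 of CVAD) and 1, also lower, against dexamethasone (3.66% of all genes, 2.15% higher and 1.51% lower). The share of all genes was not counted in the fits that left out a library. Among the 7 were the silent subunits Kcng2 and Kcnv1, Kcnj11, the Kv3 genes Kcnc1 and Kcnc4, and Kcnip1. Kcng2 had 11.8, 13.5 and 13.8 TPM in CVAD ganglia, against 21.1, 18.9 and 15.9 TPM in cyclophosphamide ganglia, with no overlap (-0.48 ± 0.15, adjusted p 1 in limma). On day 8 Kcng1 had 7.06, 6.49 and 6.45 TPM in CVAD ganglia, against 3.38, 3.83 and 4.43 TPM in cyclophosphamide ganglia (0.66 ± 0.23, adjusted p 0.892 in limma).

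The response to a drug on day 8 minus that on day 2 was tested as an interaction for CVAD, cyclophosphamide and dexamethasone, and 0 members were called in each, against 0.0826%, 0% and 0% of all genes (limma). At an unadjusted p under 0.05 there were 7 members for CVAD (8.54%), 3 higher and 4 lower, beside 8.63% of all genes (2.34% higher and 6.29% lower). For cyclophosphamide there were 3, all lower, beside 9.55% (1.43% higher and 8.12% lower), and for dexamethasone 1, which was lower, beside 4.92% (1.07% higher and 3.85% lower). Kcnj16 had the smallest adjusted p of all members in all comparisons, 0.153, with a difference of -0.92 ± 0.24 between its CVAD responses. The same gene differed between the saline groups by 0.38 (5.92, 6.47 and 5.31 TPM on day 8, against 3.35, 3.95 and 5.93 TPM on day 2), so both the CVAD and the saline libraries enter this difference. Kcnj8 gave -1.03 ± 0.34 for cyclophosphamide (adjusted p 0.315, limma), and its saline groups differed by 0.55. In the cyclophosphamide interaction the median of all genes was -0.11, which median-ratio scaling brought to 0.00, while the median of the members was -0.09 and 0.03. Saline on day 8 against saline on day 2 gave 0 called members (0.00393% of all genes) and 3 at an unadjusted p under 0.05 (6.93% of all genes, 5.53% higher and 1.4% lower), all higher, of which Kcnu1, a channel known from sperm, was highest in its difference at 0.74.

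Averaging both days gave 6 libraries a group and no called member for CVAD, cyclophosphamide or dexamethasone against saline, with 0% of all genes called in each (limma). The unadjusted counts were 0, 6 and 1 members, against 5.39%, 3.51% and 3.64% of all genes (higher in 4.48%, 1.83% and 2.3% and lower in 0.908%, 1.69% and 1.34%). The 6 cyclophosphamide members were all higher and were Kcnip1, Kcnf1, Kcnn1, Kcna3, Kcnj11 and Kcnk12, with log2 fold changes of 0.19 to 0.44. This count was 1 with the spinal cord and muscle covariates. It was 3, 1 and 12 without replicates 1, 2 and 3 of cyclophosphamide on day 2, 2 without its replicate 1 of day 8 and 3 without replicate 1 of saline on day 2. The share of all genes in these refits was not counted. Of the 56 members at 10 TPM or more, 55 (98.2%) had intervals inside 1.5-fold in each of the 3 averaged comparisons. For protein-coding genes at the same level the shares were 96.2%, 97.5% and 97.3% for CVAD, cyclophosphamide and dexamethasone. Day 8 against day 2 over the 4 groups present on both days, 12 libraries each, also gave 0 called members (0.0157% of all genes) and 3 at an unadjusted p under 0.05 (6.62% of all genes, 3.14% higher and 3.48% lower), 2 of them higher. Kcne1l, a small auxiliary subunit, gave -0.49 ± 0.16 there (adjusted p 0.508, limma).

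Proteins that hold potassium channels in place or repress their genes were examined from a list of 27 genes outside the Kcn symbols, of which 24 passed the filter. In each of the 8 comparisons with saline 0 of the 24 were called, and the unadjusted counts were 0 or 1. The Kv1 clustering proteins Cntnap2 (68.0 ± 7.26 TPM), Cntn2 (127 ± 10.9 TPM) and Adam22 (153 ± 12.6 TPM) had log2 fold changes of 0.10, 0.04 and -0.06 for CVAD on day 8. Dpp6, the partner of Kv4, averaged 171 ± 13.8 TPM and Amigo1, a partner of Kv2, 90.3 ± 6.41 TPM. Rest, a repressor of neuronal genes, averaged 16.2 ± 2.12 TPM and was 0.26 higher in CVAD ganglia on day 8 (adjusted p 0.891, limma). The 1 gene with an unadjusted p under 0.05 in each of 4 day 8 comparisons was Akap5, a scaffold of Kv7 channels. It averaged 1.70 ± 0.522 TPM and gave -0.50, -0.58, -0.52 and -0.50 for CVAD, cyclophosphamide, vincristine and doxorubicin, against the same 3 saline libraries (adjusted p 0.758, 0.707, 1 and 1). Dpp10 and Lrrc26 were listed at 0 in every library.

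While the group means of the abundant members differed little, single libraries did differ, and the abundant channel genes moved with the neuronal markers. Over the 30 libraries, each gene's log2(TPM + 1) was correlated with the mean of 8 marker lists, 656 member relations in all. With the 10 sensory neuron markers, 35 of 82 members had a positive relation and 3 a negative one at a permutation p adjusted over all genes under 0.05, against 13.6% and 1.46% of all genes. Kcnab2 had Pearson r = 0.954 and Spearman rho = 0.952, with a permutation p of 1e-05 for each, the smallest that the permutations can give, and an adjusted p of 0.000175. Without the 2 libraries farthest from the median of the markers r was 0.941, and within day 8 and day 2 it was 0.951 and 0.957. Kcnd1 (r = 0.928), Kcnb2 (0.924), Kcnip3 (0.915), Kcnt1 (0.908) and Kcnh2 (0.893) followed, all at the same adjusted permutation p. Below these came the M current gene Kcnq3, the Kv1 genes Kcna1 (0.821), Kcna2, Kcna4 and Kcna6, and Kcnk18 (0.570).

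All TPM values of a library share 1 total. With TPM rescaled over protein-coding genes alone, the positive members numbered 17 (6.34% of all genes) and the negative ones 8 (16% of all genes). Kcnab2 had r = 0.914 on that scale, Kcnd1 0.870 and Kcnip3 0.844, all positive. Kcna1 and Kcna2 also kept an adjusted permutation p under 0.05, and Kcna4 (0.190) and Kcnk18 (0.414) did not. The negative members on that scale were Kcnk2 (r = -0.721), Kcnk5, Kcnk6, Kcnj2, Kcnj9, Kcnj13, Kcnj15 and Kcnrg.

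With satellite glia markers 24 members were positive and 1 negative (14.1% and 0.413% of all genes), and 7 and 3 on the rescaled TPM (2.69% and 3.74%). The highest r were those of Kcna1 (r = 0.911, rho = 0.893, adjusted permutation p 0.000227) and Kcna2 (r = 0.867, rho = 0.902), both also positive with neurons, beside r of 0.821 and 0.807 with the sensory neuron markers. The relation of these marker lists to each other was not tested, so they cannot assign either gene to a cell type. Without the 2 farthest libraries the satellite glia values were 0.893 and 0.840, and on the rescaled TPM 0.766 and 0.706. Within day 8 and day 2 they were 0.916 and 0.893 for Kcna1 and 0.860 and 0.891 for Kcna2. With Schwann cell markers 5 members were positive and 0 negative (8.09% and 0.122% of all genes), and 2 and 12 on the rescaled TPM (4.3% and 2.74%). Kcnk5 had r = 0.663 and rho = 0.611 with Schwann cell markers (adjusted permutation p 0.00294) and Kcnk2 r = 0.636 and rho = 0.638 (0.00549), and these 2 were the positive members on the rescaled TPM, at 0.657 and 0.578. Without the 2 farthest libraries r was 0.657 and 0.630, and within day 8 and day 2 it was 0.640 and 0.851 for Kcnk5 and 0.662 and 0.634 for Kcnk2. Endothelial markers gave 9 positive and 0 negative members (21.7% and 0.0983% of all genes), and 6 and 16 on the rescaled TPM (6.72% and 4.22%). Mural and immune markers gave 0 members (0.0% in both directions for mural and 0.0197% positive for immune markers).

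Spinal cord markers gave 5 positive and 27 negative members (1.62% and 5.36% of all genes), and 6 and 14 on the rescaled TPM (4.09% and 2.53%). Kcns1 had r = -0.715 (rho = -0.648) and Kcnh1 r = -0.714 (rho = -0.682), both at an adjusted permutation p of 0.00335. Without the 2 libraries with the most spinal cord RNA, r was -0.585 for Kcns1 and -0.712 for Kcnh1, and on the rescaled TPM -0.625 and -0.630. Within day 8 and day 2 it was -0.743 and -0.699 for Kcns1 and -0.809 and -0.571 for Kcnh1. Kcnj13, Kcnk9, Kcnk5, Kcnj2 and Kcnj15 were the positive members, with r of 0.524 to 0.593, and r was 0.359 for Kcnk9 without those 2 libraries.

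Skeletal muscle markers gave 1 positive member and 0 negative ones (0.547% and 0.0% of all genes). This was Kcna7, a Kv1 gene known from skeletal and heart muscle. It was listed at 0 in 14 of 30 libraries and reached 3.54 TPM in the highest, replicate 3 of saline on day 2, whose muscle markers were also the highest at 846 TPM. Its r was 0.759 and its rho 0.842 (adjusted permutation p 0.00252), and r was 0.741 within day 8, 0.790 within day 2, 0.769 without the 2 farthest libraries and 0.758 on the rescaled TPM. In vincristine ganglia on day 8 it had 1.33, 1.66 and 0.554 TPM, against 0, 1.18 and 0.559 TPM in saline ganglia, and the muscle markers summed to 259 to 576 TPM and 10.8 to 413 TPM.

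**Figure D4:**
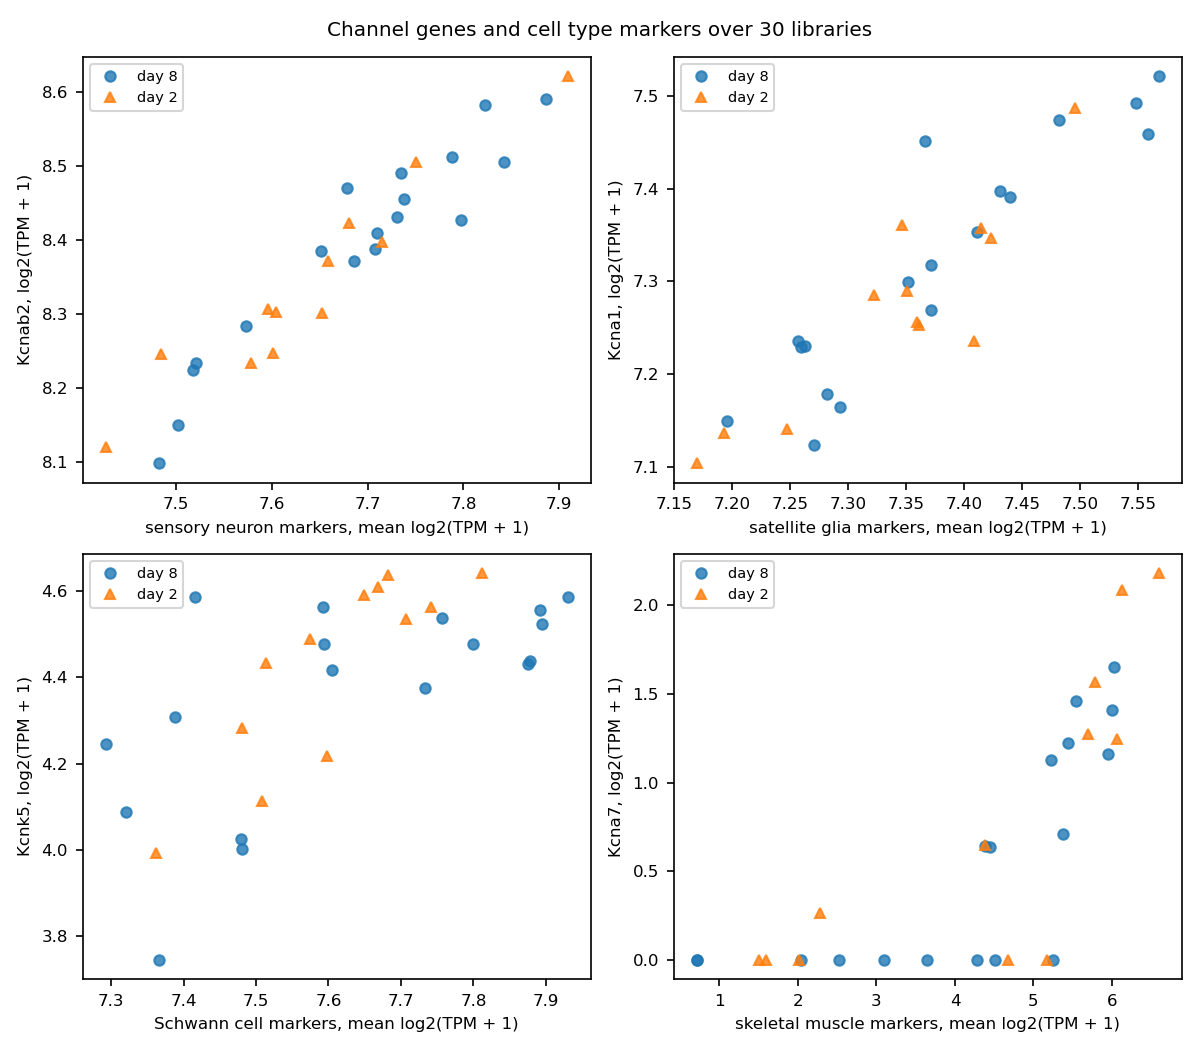
Each of the 30 libraries as a point (circles day 8, triangles day 2), with the mean log2(TPM + 1) of a marker list across and the log2(TPM + 1) of 1 channel gene up; the axes do not all start at 0. Kcnab2 follows sensory neuron markers (r = 0.954), Kcna1 satellite glia markers (0.911), Kcnk5 Schwann cell markers (0.663), and Kcna7, at 0 in 14 libraries, follows skeletal muscle markers (0.759). Kcna1 was also positive with sensory neuron markers, which is not drawn.

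The members also moved with each other. Among 3321 pairs over the 30 libraries the median r was 0.16, and 37 pairs had r of 0.8 or more, which share depth and cell content and carry no test. Among the closest were Kcnd1 with Kcnt1 (r = 0.933) and Kcnd1 with Kcnb2 (0.931). Kcna1 and Kcna2, whose proteins join in the same axonal channels, had r = 0.912, 0.935 within day 8 and 0.867 within day 2. Outside the neuronal block, Kcnj2 and Kcnj13 had r = 0.854.

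The promoters of Kcna2 and Kcna7 are shown because these Kv1 genes followed different markers over libraries. Each is 250 bases before to 50 bases after the start of a RefSeq transcript on GRCm38.p6, plus strand, at chr3:107101317-107101616 for Kcna2 and chr7:45405710-45406009 for Kcna7. In Kcna2 the capitals mark GGGCGG, a GC box, and in Kcna7 they mark CANNTG, the E box.
Kcna2: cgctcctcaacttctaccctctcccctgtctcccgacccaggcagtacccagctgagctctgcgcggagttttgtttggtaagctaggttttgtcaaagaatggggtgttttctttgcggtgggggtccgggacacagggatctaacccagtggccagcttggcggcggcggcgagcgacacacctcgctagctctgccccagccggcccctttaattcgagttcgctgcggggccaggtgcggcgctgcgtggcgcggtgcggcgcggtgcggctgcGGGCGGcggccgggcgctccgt
Kcna7: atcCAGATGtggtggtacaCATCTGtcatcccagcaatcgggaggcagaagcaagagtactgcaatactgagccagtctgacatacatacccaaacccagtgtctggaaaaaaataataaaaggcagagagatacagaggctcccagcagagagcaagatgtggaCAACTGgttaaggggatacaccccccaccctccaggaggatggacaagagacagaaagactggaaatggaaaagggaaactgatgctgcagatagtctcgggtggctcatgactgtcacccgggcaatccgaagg
The Kcna2 window held 1 GGGCGG, 0 TATAAA and 2 CANNTG and was 66.7% G and C, and the Kcna7 window held 0, 0 and 3 and was 50.3% G and C. Searched on both strands in all 32851 promoter windows, GGGCGG was in 35.7%, TATAAA in 13.6% and CANNTG in 72.3%. RefSeq windows were found for 59 members, 82 windows in all, of which 39 (47.6%) held GGGCGG, 5 (6.1%) TATAAA and 60 (73.2%) CANNTG. Their median G and C content was 58.0%, against 52.7% for all windows. A match is a run of letters and not a measured site.

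For some members the value can hold reads of a neighbour, since it is not stated whether the counting used strand. Of the 82 members, 31 overlap another tested gene, 8 of them a protein-coding one, and 14 on the same strand. Kcnmb1 (20.8 TPM) lies in Kcnip1 (37.9 TPM) on the opposite strand, Kcnq1 (1.68 TPM) overlaps the opposite-strand RNA Kcnq1ot1 (14.4 TPM), and Kcnrg (1.09 TPM) overlaps the opposite-strand RNA Dleu2 (72.6 TPM), so their levels are uncertain.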

How the data were processed

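Total RNA (60 to 80 ng) was depleted of ribosomal RNA and made into strand-specific libraries, per the labels' protocols. Tools listed in the submitters' processing notes are StringTie 2.2.1, STAR 2.7.10b and FastQC 0.12.1. The notes list GRCm39 and mm10 as builds and give neither a role. The authors deposited TPM per gene, and each library summed to 999910 to 999941, so the reads behind a value cannot be recovered and no counting interval is given. Exact 0 values can be failed estimates. Gene coordinates are as deposited and match GRCm39; sequences come from GRCm38 (GENCODE M21, RefSeq).

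Genes that reached 1 TPM in 3 or more libraries were fitted as log2(TPM + 1) in limma 3.58.1 (R 4.3.3), 1 mean per group, moderated variances with a trend, 22 two-sided comparisons and 1 F test, Benjamini-Hochberg over 25434 genes within each, threshold 0.05. The scripts were tested on simulated data. Relations to markers used 100000 permutations of the 30 libraries. The members, gene lists and markers were chosen with earlier results of these data known. Genes named are, per comparison with saline, the 3 of smallest p, elsewhere the 1 of smallest p, the 3 most abundant of each family, genes much studied in sensory neurons and those nearest the filter; others (all those with an unadjusted p under 0.05, pairs and partners) were chosen after their values were seen. Replicates were numbered in accession order. Alternatives were another pseudocount (0.1), no filter, 2 other scalings, library weights, separate days, marker covariates and leaving out each library. A few members enter the counts but are not reported here by name.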

Additional observations from a re-analysis of the deposited data

How the results depend on the processing

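Under no planned or added alternative did a member pass an adjusted p of 0.05, and of 354 counts of called members 0 were above 0. All 578 values of 38 named gene results kept their direction and side of the threshold. These 38 were picked for the smallest p in the main fit, and the alternatives use the same libraries or most of them. Their kept direction is therefore no independent support. The smallest adjusted p was 0.0571 (limma with library quality weights, Kcnj16, CVAD against saline on day 2). For the counts at an unadjusted p under 0.05, the share of all genes under the alternatives was not counted. The numbers of members with an unadjusted p under 0.05, and of members related to markers, moved by more than 1.5 times as follows, and the cause was not tested. Library quality weights gave 0 for dexamethasone on day 8, 17 for cyclophosphamide on day 2, 7 for the cyclophosphamide response, the dexamethasone response and saline between days, and 2 for dexamethasone over both days; CVAD gave 6 against doxorubicin, 2 against dexamethasone on each day and 11 against cyclophosphamide on day 2. Median-ratio scaling gave 3 for cyclophosphamide and 2 for vincristine on day 8, 11 for CVAD on day 2, 6 for saline between days, and 2 for CVAD and for dexamethasone over both days; CVAD on day 8 gave 6 against cyclophosphamide, 1 against vincristine, 4 against doxorubicin and 2 against dexamethasone, and 4 against dexamethasone on day 2. Rescaling over coding genes gave 3 for cyclophosphamide and vincristine on day 8, 11 for CVAD on day 2, 6 for saline between days and for day 8 against day 2, and 2 and 3 for CVAD and dexamethasone over both days; CVAD on day 8 gave 5, 1 and 4 against cyclophosphamide, vincristine and dexamethasone, and 4 against dexamethasone on day 2. No filter gave 2 for CVAD against dexamethasone on day 8, and a pseudocount of 0.1 gave 1 for CVAD against doxorubicin. Separate models per day gave 2 for cyclophosphamide and doxorubicin on day 8 and 3 for dexamethasone on day 2; CVAD gave 4 against doxorubicin, and on day 2 4 and 0 against cyclophosphamide and dexamethasone. Spinal cord and muscle covariates gave 5, 2, 4 and 0 for CVAD, cyclophosphamide, vincristine and dexamethasone on day 8, 3 for cyclophosphamide and dexamethasone on day 2, 4 for the dexamethasone response, and 1, 1 and 0 for CVAD, cyclophosphamide and dexamethasone over both days; CVAD on day 8 gave 6, 5 and 3 against cyclophosphamide, doxorubicin and dexamethasone, and 2 against cyclophosphamide on day 2. A sensory neuron covariate, chosen after seeing the data, gave 5 and 7 for CVAD and vincristine on day 8, 7 and 8 for CVAD and dexamethasone on day 2, 2 for the dexamethasone response, and 1 and 3 for CVAD and dexamethasone over both days; CVAD gave 2 against vincristine and against dexamethasone on each day. Rescaling over coding genes, also chosen after seeing the data, gave 17 positive and 8 negative members for sensory neuron markers, 7 and 3 for satellite glia, 2 and 12 for Schwann cells, 6 and 14 for spinal cord, and 6 and 16 for endothelium. Leaving out each library in turn gave, against saline on day 8, 1 to 4 members for CVAD, 1 to 3 for cyclophosphamide and vincristine, 0 to 6 for doxorubicin and 0 to 2 for dexamethasone, and on day 2 2 to 5 for CVAD, 3 to 19 for cyclophosphamide (19 without its replicate 3) and 2 to 8 for dexamethasone (8 without saline replicate 3). It gave, for CVAD on day 8, 2 to 5 against cyclophosphamide, 0 to 2 against vincristine, 1 to 3 against doxorubicin and 1 to 6 against dexamethasone, and on day 2 2 to 19 and 0 to 4 against cyclophosphamide and dexamethasone. It gave 4 to 8, 1 to 8 and 1 to 4 for the CVAD, cyclophosphamide and dexamethasone responses, 0 to 1, 1 to 12 and 0 to 2 for the same drugs over both days, 0 to 6 for saline between days and 1 to 5 for day 8 against day 2. No paired analysis was possible because replicate numbers follow accession order and pair no libraries. Depth is unknown, and 3 libraries a group limit what can be seen in genes of few TPM.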
